A study of Mus musculus with 9 samples.

Results

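The comparison set 3 libraries of mouse cancer-associated fibroblasts labelled beta-catenin -/- against 3 libraries of cancer-associated fibroblasts (CAF) labelled wild type. Libraries with the beta-catenin -/- label are called bcatKO-labelled CAF here. Members were chosen by source and genotype labels, 6 of the 9 libraries in the series, and all expressed genes were described in both directions. The other 3 libraries, normal fibroblasts (NF) labelled wild type, shared the model fit and are given as levels only. All 9 came from strain C57BL/6 and from cells kept in DMEM with 10% fetal bovine serum. Total RNA was sequenced on an Illumina instrument, and the deposited values are read counts per gene. The allele, any Cre driver, the tumour and the age or sex of the animals are not given in the labels. Nor do they say whether the replicates of a group were separate cultures or separate animals. The p-values therefore measure only how far these samples spread, and that spread may be technical.

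Cancer-associated fibroblasts are the stromal cells of tumours that deposit collagen-rich matrix, contract it and secrete growth factors and chemokines. Beta-catenin links cadherins to the actin cytoskeleton at cell junctions, and it is also the coactivator through which canonical Wnt ligands, acting on Frizzled and LRP receptors, turn on genes bound by TCF and LEF factors. Without a Wnt signal, a complex of APC, AXIN, GSK3 and casein kinase 1 marks the cytoplasmic protein for destruction.

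Counts per library totalled 15433810 to 18277574 in bcatKO-labelled CAF and 19007456 to 21893574 in CAF. Of 51912 genes, 14314 passed the filter on low counts and were tested. Levels are given as CPM, counts scaled to a common library size with TMM factors, and values of 3 libraries stand in the order of replicates 1 to 3. Across genes, log2(CPM + 1) of bcatKO-labelled CAF correlated with each other at Pearson r of 0.985 to 0.995, with CAF at 0.824 to 0.846 and with NF at 0.932 to 0.994. CAF libraries correlated with each other at 0.986 to 0.989, and NF libraries at 0.943 to 0.977. NF replicate 1 stood apart from its group, with r of 0.990 to 0.994 to the bcatKO-labelled libraries against 0.957 and 0.943 to the other NF libraries. It enters the comparison through the shared error of the fit and through the filter on low counts, and 14759 genes were tested without it. By this measure each bcatKO-labelled library was nearer to every NF library than to any CAF library, although CAF is the source label it carries. Genes are not independent replicates, and these values describe the libraries only. Within its group, bcatKO-labelled replicate 3 was at least 2-fold below both others for 171 of 10002 genes and above both for 12.

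Ctnnb1, the gene of beta-catenin (chr9:120929216-120960507, GRCm38), stood at 668, 637 and 627 CPM in bcatKO-labelled CAF, against 855, 882 and 858 CPM in CAF. In NF it was at 713, 799 and 669 CPM. The 3 bcatKO-labelled libraries lay below all 3 CAF libraries, at 74.4% of the CAF level, and the transcript was abundant in every library. Its log2 fold change was -0.43 ± 0.14 (SE, edgeR quasi-likelihood adjusted p = 0.0339), against a median absolute log2 fold change of 0.61 over all tested genes. A two-sided exact permutation test of the 3 against 3 CPM values gave p = 0.1, the smallest that this design allows. The call was lost with total counts as scaling (adjusted p = 0.152), without a filter (adjusted p = 0.16), in a test beyond 1.5-fold (adjusted p = 0.936) and without any 1 of the 6 libraries (adjusted p from 0.0665 to 0.115). Counts over the whole gene include reads outside any deleted exon, so the level does not check the genotype label.

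Transcripts from the sex chromosomes were also checked. Xist, which is transcribed from the inactive X chromosome of female cells, was at 665, 799 and 923 CPM in bcatKO-labelled CAF, against 257, 0.155 and 4.92 CPM in CAF. The Y-linked helicase gene Ddx3y was at 0.129, 0 and 0 CPM in bcatKO-labelled CAF, against 18.4, 84.9 and 120.4 CPM in CAF. Of 7 tested genes listed on the Y chromosome, 4 fell, Ddx3y, Kdm5d, Uty and Eif2s3y, and 1 rose, the pseudogene Mid1-ps1, at 1.03, 1.04 and 1.15 CPM in bcatKO-labelled CAF, against 0, 0 and 0.0477 CPM in CAF. Xist did not pass the test (adjusted p = 0.132), with CAF replicate 1 far above the other CAF libraries. In NF, Xist was at 861, 283 and 459.9 CPM and Ddx3y at 0.127, 0 and 0.185 CPM. Ddx3y was near 0 outside CAF, so it passed the filter only through the CAF libraries, and a lower call was close to fixed. The same may hold for Kdm5d, Uty and Eif2s3y. Without CAF replicate 1, Xist was called higher (adjusted p = 0.00171), as it was with limma-voom and without a filter. Ddx3y was higher in CAF by 2014-fold (95% counting interval 557 to 16639). Genotype, the sex of the cells and the origin of the cultures cannot be told apart in this design.

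At an adjusted p under 0.05, 6332 of the 14314 tested genes were called, or 44.2%. Of these, 3079 (21.5% of tested genes) were higher in bcatKO-labelled CAF and 3253 (22.7%) were lower. The log2 fold change reached 3 in size for 715 higher and 1007 lower genes, and it reached 8 for 68 higher and 215 lower genes. The 3 libraries of each group did not overlap for 9400 tested genes (65.7%), 4631 higher (32.4%) and 4769 lower (33.3%). These shares are the background for counts of called list members, and leaving out a library also changes which genes pass the filter. With total counts as scaling, which moved the median log2 fold change of all genes by 0.136, the split was 3743 higher and 2686 lower. Without NF replicate 1, 7887 genes were called, and with the 6 libraries compared alone 3832 rose and 4001 fell. In these bulk libraries, fewer cells of a kind and less RNA per cell cannot be told apart.

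**Figure D1:**
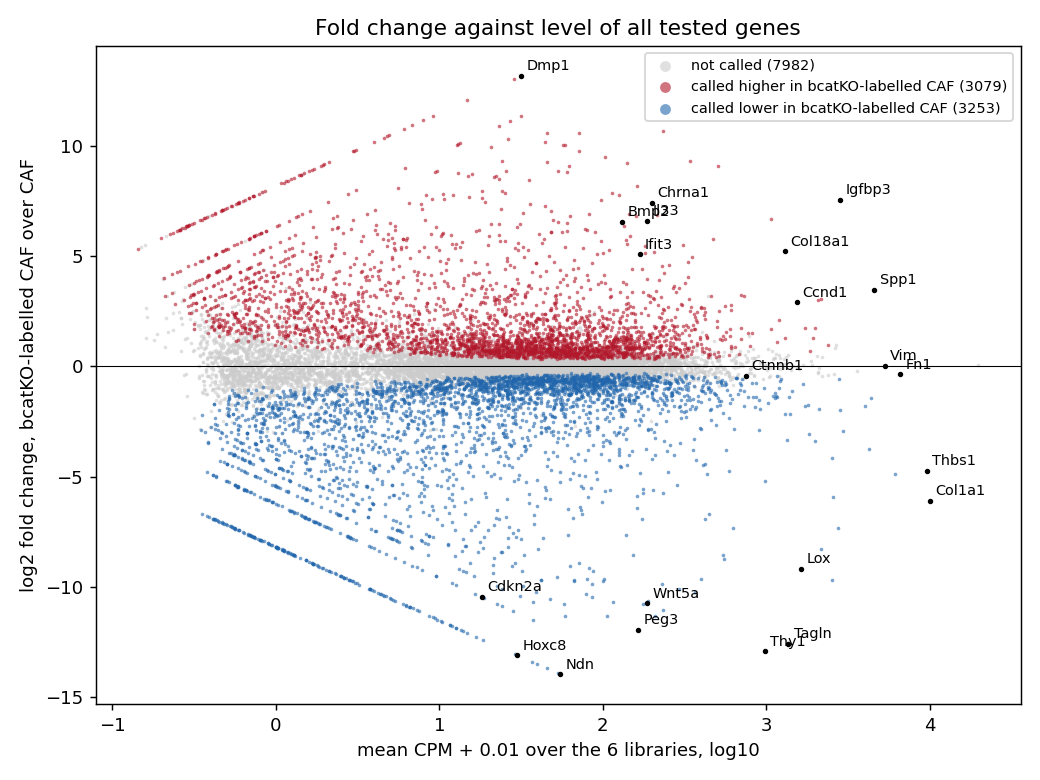
Log2 fold change of bcatKO-labelled CAF over CAF (vertical axis) against mean CPM of the 6 libraries on a log10 scale (horizontal axis) for the 14314 tested genes, coloured by call. Thy1, Tagln and Col1a1 lie far below 0 and Igfbp3 and Spp1 far above it at high levels, while Ctnnb1, Vim and Fn1 lie near 0.

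The genes that took most of the counts differed between the groups. Col1a1, the main chain of type I collagen (chr11:94936224-94953042), took the most counts of any protein-coding gene in CAF. It was at 335, 308 and 235 CPM in bcatKO-labelled CAF, against 14547, 25744 and 19489 CPM in CAF. All 3 bcatKO-labelled libraries were lower by more than an order of magnitude, and the log2 fold change was -6.09 ± 0.45 (adjusted p = 1.13e-05). In bcatKO-labelled CAF, Spp1, which encodes the secreted phosphoprotein osteopontin (chr5:104435118-104441050), took the most counts of any protein-coding gene. It was at 8225, 8759 and 8325 CPM in bcatKO-labelled CAF, against 875, 937 and 466 CPM in CAF. Igfbp3, an insulin-like growth factor binding protein (chr11:7206086-7213923), was at 5739, 5394 and 5846 CPM in bcatKO-labelled CAF, against 19.8, 33.3 and 36.1 CPM in CAF. Neither gene's groups overlapped, with log2 fold changes of 3.47 ± 0.34 (adjusted p = 5.78e-05) and 7.57 ± 0.43 (adjusted p = 2.73e-06). Vim, the mesenchymal intermediate filament vimentin, was at 5796, 5018 and 5347 CPM in bcatKO-labelled CAF, against 4738, 5796 and 5204 CPM in CAF. Fn1, fibronectin, was at 4819.9, 4437 and 8111 CPM in bcatKO-labelled CAF, against 6314, 7582 and 8260.2 CPM in CAF. Their levels overlapped between the groups and neither was called (adjusted p = 0.897 and 0.697). The 100 genes with the most counts held 19.7% of the counts in bcatKO-labelled CAF and 26.1% in CAF.

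Several genes were present in one group with no count in the other. Dmp1, a matrix protein of mineralised bone, was at 61.8, 61.6 and 66.7 CPM in bcatKO-labelled CAF, against 0, 0 and 0 CPM in CAF, or at least 1226-fold higher against a floor of 3 counts over the CAF group. Sucnr1, the receptor for succinate, was at 54.2, 43.0 and 75.8 CPM in bcatKO-labelled CAF and without a count in CAF, at least 1108-fold higher. The neuronal pentraxin gene Nptx1 was at 492, 499 and 419 CPM in bcatKO-labelled CAF, against 0.448, 0.311 and 0.0955 CPM in CAF. Each of these genes was high in all 3 bcatKO-labelled libraries and at or near 0 in CAF. Other genes of this kind varied within the group. The chemokine receptor gene Cxcr3 was at 23.8, 23.2 and 0.404 CPM in bcatKO-labelled CAF and had no count in CAF, at least 306-fold higher, or 455-fold without replicate 3, the low library. It lost its call without CAF replicate 1, 2 or 3 (adjusted p from 0.0531 to 0.0633) and with limma-voom (adjusted p = 0.136). Nwd2 went the other way within the group, at 10.6, 10.6 and 66.9 CPM, and its bound of 567-fold became 206-fold without replicate 3.

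In the other direction, Ndn, the imprinted gene of necdin, had no count in bcatKO-labelled CAF and was at 109, 119.7 and 98.3 CPM in CAF, at least 1892-fold lower. Lgr5, a receptor for R-spondins, which amplify Wnt signals, likewise had no count in bcatKO-labelled CAF and was at 33.8, 37.9 and 246 CPM in CAF. That is at least 1942-fold lower, or 625-fold without CAF replicate 3, the high library. Adcyap1r1, the receptor for the peptide PACAP, had no count in bcatKO-labelled CAF and 120.4, 58.6 and 58.1 CPM in CAF, at least 1345-fold lower. In all, 172 tested genes had no count in bcatKO-labelled CAF and 88 had none in CAF. At a mean of at least 5 CPM in one group and at most 0.5 CPM in the other, 136 genes were on the bcatKO-labelled side and 308 on the CAF side.

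The Wnt pathway, in which beta-catenin acts, moved in parts. Of 10 tested Wnt ligands, 2 rose and 6 fell, with a median log2 fold change of -2.57 against -0.01 over all tested genes. Wnt5a, a ligand known for non-canonical signalling, was at 0.257, 0.363 and 0 CPM in bcatKO-labelled CAF, against 403, 348 and 367 CPM in CAF. It was near 0 in every bcatKO-labelled library, with a log2 fold change of -10.75 ± 0.48 (adjusted p = 9.61e-07), or -11.50 without bcatKO-labelled replicate 2. Wnt9a also fell, at 6.05 ± 0.610 CPM in bcatKO-labelled CAF and 24.8 ± 10.2 CPM in CAF (SD, n = 3 each, here and for later means). Wnt7b was higher, at 40.0, 33.2 and 8.31 CPM in bcatKO-labelled CAF, against 0.504, 0.466 and 0.621 CPM in CAF, without overlap but with bcatKO-labelled replicate 3 below the other 2. Wnt10a, the other ligand called higher, lost its call without CAF replicate 1, 2 or 3 (adjusted p from 0.0632 to 0.0706) and with limma-voom (adjusted p = 0.119), which left 1 ligand higher.

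Among Wnt receptors and R-spondin receptors, 1 of 18 tested members rose and 9 fell. Fzd2, a Frizzled receptor, was at 5.59, 5.76 and 4.50 CPM in bcatKO-labelled CAF, against 139.9, 195 and 207 CPM in CAF. Ror2, a receptor kinase that binds Wnt5a, was at 2.83, 3.89 and 1.67 CPM in bcatKO-labelled CAF, against 41.7, 63.3 and 43.9 CPM in CAF. Both were lower in every bcatKO-labelled library than in any CAF library, with log2 fold changes of -5.09 ± 0.26 and -4.14 ± 0.41 (adjusted p = 1.54e-06 and 6.43e-05). Fzd5 was the 1 receptor called higher, at 43.0 ± 1.16 CPM in bcatKO-labelled CAF and 18.2 ± 2.84 CPM in CAF. Higher receptors numbered 2 without CAF replicate 1 or NF replicate 1 or 2, and 3 without NF replicate 3 or with total counts as scaling. Secreted inhibitors of the pathway had 4 of 6 tested members lower and 1 higher. Dkk3, a member of the Dickkopf family, was at 0.643, 0.156 and 0.0577 CPM in bcatKO-labelled CAF, against 176, 162 and 188 CPM in CAF, with a log2 fold change of -9.30 ± 0.50, or -10.56 without bcatKO-labelled replicate 1. The 1 higher inhibitor was Notum, a lipase that removes the lipid of Wnt proteins and is itself known as a Wnt target, at 36.2, 40.1 and 19.1 CPM in bcatKO-labelled CAF, against 0.0560, 0.155 and 0 CPM in CAF. Its groups were far apart, with a log2 fold change of 8.71 ± 0.70 (adjusted p = 1.82e-05), or 9.92 without CAF replicate 2 and 8.12 without CAF replicate 3.

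Of 26 tested genes of the intracellular machinery, 4 rose and 9 fell, against 21.5% and 22.7% of all tested genes. Tcf7l1, a TCF factor known mainly as a repressor, was at 9.16 ± 1.58 CPM in bcatKO-labelled CAF and 49.3 ± 9.84 CPM in CAF, and Tcf7l2 was at 16.8 ± 2.05 CPM in bcatKO-labelled CAF and 36.5 ± 5.53 CPM in CAF. The corepressor gene Tle1 was at 66.2 ± 7.39 CPM in bcatKO-labelled CAF and 26.6 ± 5.504 CPM in CAF, with a log2 fold change of 1.32 ± 0.18. Higher members numbered 2 without CAF replicate 3 and 1 without bcatKO-labelled replicate 3.

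Genes known as Wnt targets in other tissues moved both ways, with 4 of 16 tested members higher and 8 lower. Tcf7, a TCF factor that is itself a target, was at 53.7, 45.2 and 50.6 CPM in bcatKO-labelled CAF, against 1.01, 1.09 and 0.812 CPM in CAF. Ccnd1, the gene of cyclin D1, was at 2381, 2585 and 3191 CPM in bcatKO-labelled CAF, against 329, 306 and 438 CPM in CAF. Both were higher in every bcatKO-labelled library, with log2 fold changes of 5.68 ± 0.26 and 2.93 ± 0.22 (adjusted p = 1.00e-06 and 1.42e-05). Ccn4, the matricellular target once called Wisp1, was at 9.77, 7.16 and 3.75 CPM in bcatKO-labelled CAF, against 744, 740.0 and 1029 CPM in CAF. Prickle1, a planar polarity gene, was at 0.129, 0.363 and 0.173 CPM in bcatKO-labelled CAF, against 35.2, 41.3 and 42.6 CPM in CAF. These 2 were lower in every bcatKO-labelled library, with log2 fold changes of -6.93 ± 0.53 and -7.40 ± 0.32 (adjusted p = 1.43e-05 and 7.88e-07). Axin2, the most widely used reporter of canonical signalling, was near the detection limit at 1.93, 1.25 and 0.635 CPM in bcatKO-labelled CAF, against 0.728, 1.40 and 1.00 CPM in CAF, overlapping between the groups (adjusted p = 0.743). Lef1 was at 1.35, 1.51 and 1.27 CPM in bcatKO-labelled CAF, against 1.06, 1.09 and 3.87 CPM in CAF and was not called either (adjusted p = 0.55). Myc, called higher (adjusted p = 0.0462), lost its call without CAF replicate 1, 2 or 3 or bcatKO-labelled replicate 1, 2 or 3 or NF replicate 2 (adjusted p from 0.0564 to 0.163), with RLE scaling (adjusted p = 0.0515) and in a test beyond 1.5-fold (adjusted p = 0.354).

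The list of cadherins, catenins and other junction genes had 12 of 19 tested members lower and 4 higher. Cdh11, the mesenchymal cadherin 11, was at 3.28, 4.77 and 0.520 CPM in bcatKO-labelled CAF, against 956, 1078 and 1248 CPM in CAF. Levels were low in all bcatKO-labelled libraries, with a log2 fold change of -8.57 ± 1.12 (adjusted p = 3.00e-04), or -9.19 without replicate 2 of that group. Cdh3, P-cadherin, was at 0, 0.104 and 0 CPM in bcatKO-labelled CAF, against 71.2, 128 and 151 CPM in CAF, higher in CAF by 3099-fold (95% counting interval 858 to 25596). Cdh6, another cadherin, was at 157, 113 and 205 CPM in bcatKO-labelled CAF, against 3.53, 2.74 and 0.239 CPM in CAF. Cdh13 was at 609 ± 68.6 CPM in bcatKO-labelled CAF and 13.2 ± 5.71 CPM in CAF, and Pkp1, a plakophilin of desmosomes, at 71.3 ± 17.4 CPM in bcatKO-labelled CAF and 0.417 ± 0.361 CPM in CAF. All 3 rose without overlap, with log2 fold changes of 6.20 ± 0.69, 5.52 ± 0.40 and 7.36 ± 0.58, the last 8.32 without CAF replicate 3. Afdn, which links nectins to actin, was the fourth higher gene, and its call was lost without bcatKO-labelled replicate 1 (adjusted p = 0.0515) and in a test beyond 1.5-fold (adjusted p = 0.641).

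**Figure D2:**
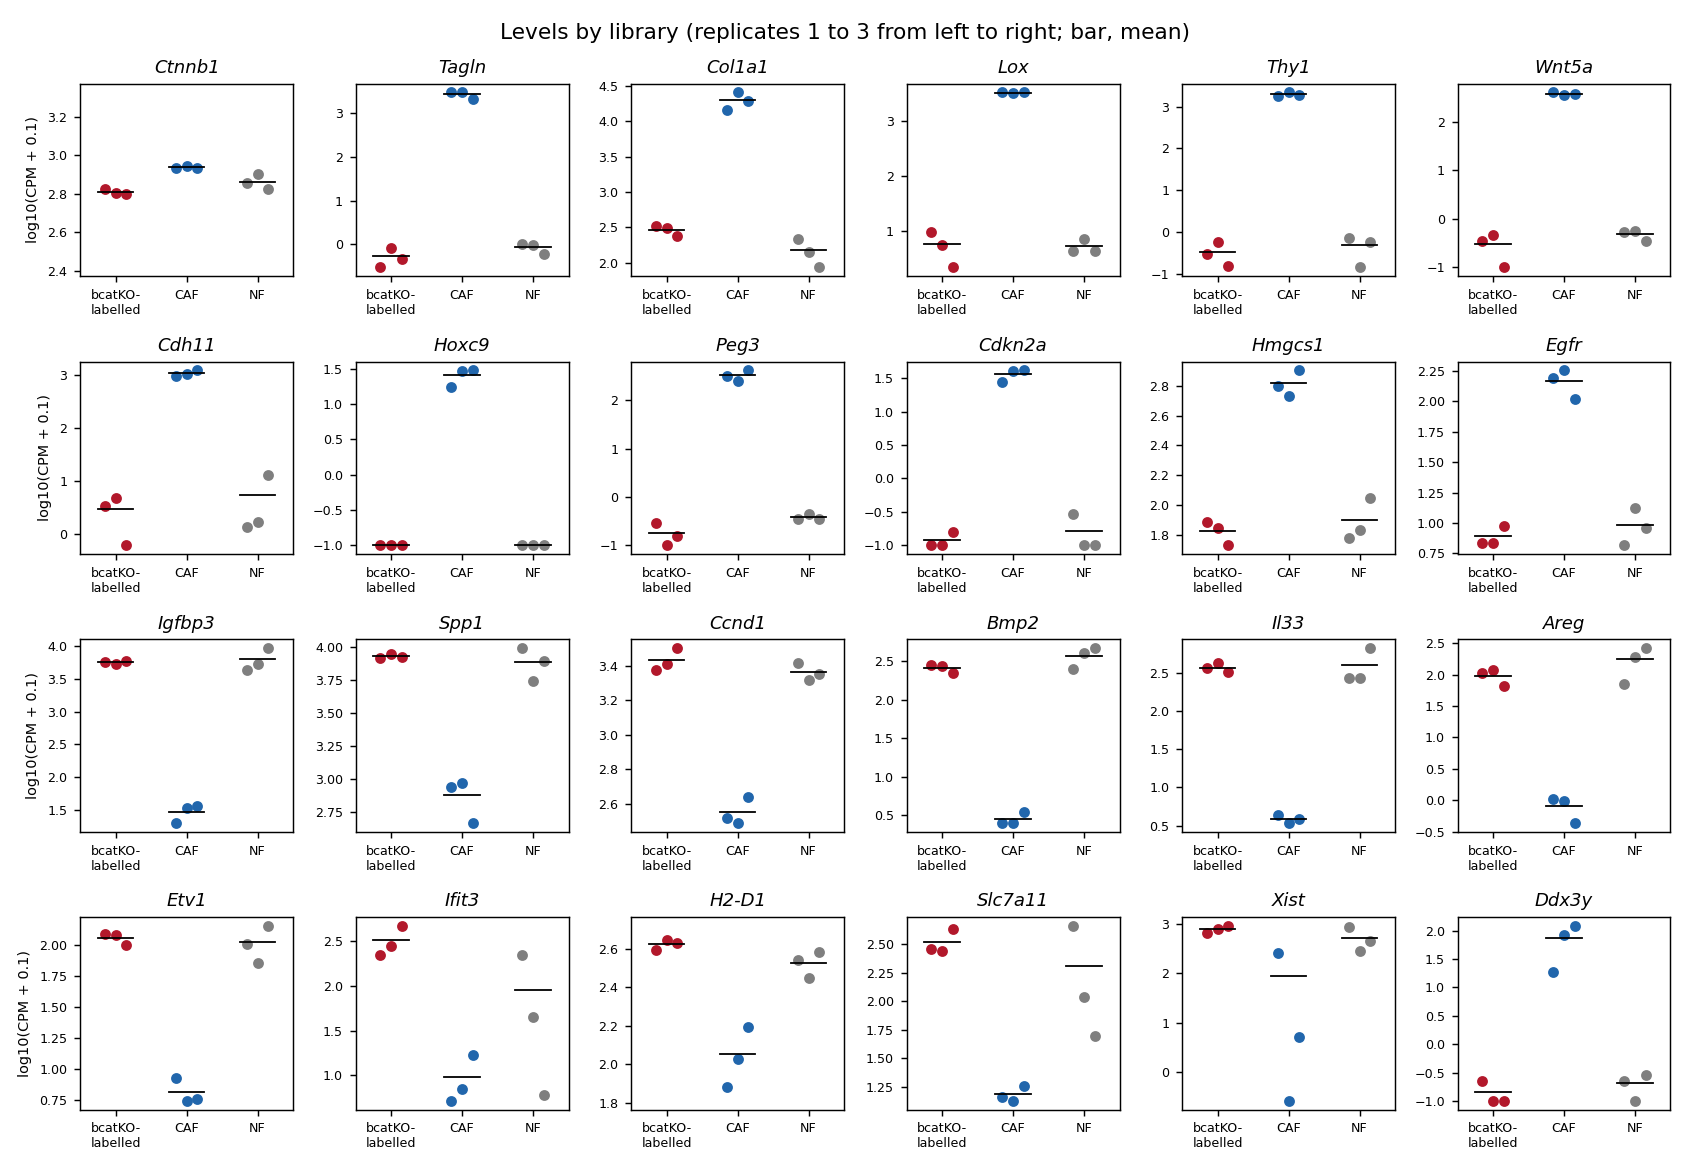
Levels of 24 genes in each library as log10(CPM + 0.1) on the vertical axes, with bcatKO-labelled CAF, CAF and NF from left to right, replicates 1 to 3 as points and group means as bars. Tagln, Col1a1, Lox, Thy1, Wnt5a, Cdh11, Hoxc9, Peg3 and Cdkn2a are high in the 3 CAF libraries and low in the other 6, Ctnnb1 spans 627 to 882 CPM in all 9, and Xist varies within CAF.

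Contractile genes of myofibroblasts, the actin-rich state of activated fibroblasts, fell as a group. Of 19 tested members, 17 fell, against 22.7% of all tested genes, with a median log2 fold change of -3.79. By edgeR 0 rose, as with DESeq2, with limma-voom and at an unadjusted p under 0.05, and 17 or 18 fell without any 1 library. Tagln, the actin-binding protein transgelin (chr9:45929619-45936058), was at 0.193, 0.727 and 0.346 CPM in bcatKO-labelled CAF, against 3013, 2999.6 and 2169 CPM in CAF. Myl9, a regulatory myosin light chain, was at 0.193, 0.0519 and 0.404 CPM in bcatKO-labelled CAF, against 479.7, 593 and 328 CPM in CAF. Actg2, a smooth muscle actin, was at 0, 0.104 and 0.115 CPM in bcatKO-labelled CAF, against 259, 247 and 128 CPM in CAF. These transcripts were close to 0 in each bcatKO-labelled library and abundant in each CAF library. The log2 fold change was -12.59 ± 0.47 for Tagln (adjusted p = 4.55e-07), -11.06 ± 0.48 for Myl9 (adjusted p = 7.88e-07) and -11.31 ± 0.58 for Actg2 (adjusted p = 1.63e-06). Without bcatKO-labelled replicate 2 it was -13.26 for Tagln, and without replicate 3 -11.90 for Myl9. Acta2, smooth muscle alpha-actin, was at 12.5, 3.11 and 2.77 CPM in bcatKO-labelled CAF, against 5201, 5823 and 4154 CPM in CAF, with bcatKO-labelled replicate 1 highest of its group. Its log2 fold change was -9.70 ± 0.97 (adjusted p = 6.55e-05), or -10.74 without that library.

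Promoters of 16 tested contractile genes were in the RefSeq table (GRCm38.p6), as windows from 250 bases before to 50 after the start. The CArG box, the site known to bind serum response factor at contractile genes, was found on either strand in 2 of these 16 (12.5%), against 1.66% of the 10405 tested genes with a promoter. The matches, in Myl9 and Cnn2, are shown with the CArG box in capitals because both genes fell.
Myl9, chr2:156775278-156775337, plus strand: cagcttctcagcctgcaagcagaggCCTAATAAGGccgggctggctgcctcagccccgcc
Cnn2, chr10:79988519-79988578, plus strand: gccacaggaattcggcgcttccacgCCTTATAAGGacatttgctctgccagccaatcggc
Cnn2, the gene of calponin 2, was at 187, 198 and 203 CPM in bcatKO-labelled CAF, against 965, 1182 and 823 CPM in CAF, lower in each bcatKO-labelled library. A match of letters is a description of sequence only.

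Of 23 tested collagen genes, 15 fell, against 22.7% of all tested genes, and 2 rose, against 21.5%, with a median log2 fold change of -2.18. Summed over the list, collagens took 7085 to 8424 CPM in bcatKO-labelled CAF and 45053 to 67517 CPM in CAF. Col1a2 was at 363, 385 and 459 CPM in bcatKO-labelled CAF, against 9253, 13279 and 13212 CPM in CAF. Col12a1, which associates with collagen I fibrils, was at 98.8, 60.2 and 90.1 CPM in bcatKO-labelled CAF, against 4920.0, 5151 and 5155 CPM in CAF. The groups did not overlap for either gene, with log2 fold changes of -4.89 ± 0.64 and -5.93 ± 0.64 (adjusted p = 3.02e-04 and 9.97e-05). The 2 higher collagens were both basement membrane types. Col18a1, the source of endostatin, was at 2135, 2144 and 3337 CPM in bcatKO-labelled CAF, against 40.4, 100.4 and 62.8 CPM in CAF. Col15a1 was at 71.5, 27.7 and 40.5 CPM in bcatKO-labelled CAF, against 4.20, 9.37 and 2.53 CPM in CAF. Their log2 fold changes were 5.22 ± 0.45 (adjusted p = 2.89e-05) and 3.12 ± 0.57 (adjusted p = 0.00208), that of Col15a1 3.78 without CAF replicate 2.

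Of 22 collagen-processing genes, 16 fell and 3 rose. Lox, lysyl oxidase, which crosslinks collagen and elastin, was at 9.45, 5.40 and 2.08 CPM in bcatKO-labelled CAF, against 3314, 3201 and 3315 CPM in CAF. Loxl2, a related oxidase, was at 0.900, 0.727 and 0.173 CPM in bcatKO-labelled CAF, against 803, 831 and 556 CPM in CAF. Both were lower in every bcatKO-labelled library, with log2 fold changes of -9.19 ± 0.60 (adjusted p = 5.37e-06) and -10.24 ± 0.65 (adjusted p = 4.68e-06). P4ha3, a collagen prolyl hydroxylase subunit, was at 0.700 ± 0.252 CPM in bcatKO-labelled CAF and 75.5 ± 16.2 CPM in CAF. The 3 higher members were Plod2, a lysyl hydroxylase, at 217 ± 38.0 CPM in bcatKO-labelled CAF and 81.5 ± 17.1 CPM in CAF, Pcolce2, an enhancer of procollagen cleavage, at 53.7 ± 1.37 CPM in bcatKO-labelled CAF and 22.03 ± 6.10 CPM in CAF, and the procollagen peptidase Adamts14 at 122 ± 14.1 CPM in bcatKO-labelled CAF and 33.9 ± 18.9 CPM in CAF.

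Matrix glycoproteins had 21 of 30 members lower and 5 higher, with a median log2 fold change of -2.56. The microfibril genes Mfap4 and Mfap5 had no count in bcatKO-labelled CAF. In CAF, Mfap4 was at 43.9, 62.8 and 68.7 CPM and Mfap5 at 68.9, 82.0 and 29.6 CPM, each at least 1027-fold lower. Postn, periostin, was at 7.33, 14.8 and 19.1 CPM in bcatKO-labelled CAF, against 4241, 4726 and 4008 CPM in CAF. Tnc, tenascin C, was at 390.4, 458 and 912 CPM in bcatKO-labelled CAF, against 9749, 9231 and 4849.6 CPM in CAF. Thbs1, thrombospondin 1, was at 1116, 894 and 78.9 CPM in bcatKO-labelled CAF, against 20229, 21106 and 14430.1 CPM in CAF, so that bcatKO-labelled replicate 3 was far below the other 2 while all 3 lay below CAF. Its log2 fold change was -4.74 ± 1.15 (adjusted p = 0.00867). The 5 higher members were Spp1, given above, Ecm1 at 696 ± 16.9 CPM in bcatKO-labelled CAF and 108 ± 19.98 CPM in CAF, Tgfbi at 527 ± 219.9 CPM in bcatKO-labelled CAF and 73.4 ± 34.8 CPM in CAF, and the latent TGF-beta binding proteins Ltbp3 at 276 ± 18.7 CPM in bcatKO-labelled CAF and 115 ± 35.1 CPM in CAF and Ltbp1 at 618 ± 31.4 CPM in bcatKO-labelled CAF and 394 ± 66.6 CPM in CAF. The call of Ltbp1 was lost without CAF replicate 2 or 3 or bcatKO-labelled replicate 1, 2 or 3 (adjusted p from 0.0893 to 0.146), with RLE scaling (adjusted p = 0.0574) and in a test beyond 1.5-fold (adjusted p = 0.407). Small leucine-rich proteoglycans, which bind collagen fibrils, fell in 5 of 9 cases. Fmod, fibromodulin, was higher in CAF by 1344-fold (95% counting interval 241 to 53139.5), and Bgn, biglycan, was at 686 ± 174 CPM in bcatKO-labelled CAF and 5183 ± 934 CPM in CAF.

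Receptors for matrix changed in both directions. Of 19 integrin genes, 9 rose and 7 fell. Itga11, the alpha chain of a fibroblast receptor for collagen I, was at 0.193, 0.104 and 0.115 CPM in bcatKO-labelled CAF, against 154, 272 and 269.9 CPM in CAF. Itgb4, the beta chain of the laminin receptor of hemidesmosomes, was at 45.0, 73.6 and 72.0 CPM in bcatKO-labelled CAF, against 1.23, 2.17 and 2.72 CPM in CAF. Itgb7 was at 44.7, 50.03 and 43.0 CPM in bcatKO-labelled CAF, against 0.672, 1.04 and 0.477 CPM in CAF. Each gene's groups were separate, with log2 fold changes of -10.68 ± 0.40, 4.95 ± 0.43 and 5.97 ± 0.36 (adjusted p = 4.55e-07, 3.00e-05 and 3.44e-06). Of 10 laminin genes, 3 rose and 3 fell, against 21.5% and 22.7% of all tested genes. Lama5, a chain of basement membrane laminins, was at 936, 753 and 1093 CPM in bcatKO-labelled CAF, against 15.8, 22.2 and 11.9 CPM in CAF, higher in each bcatKO-labelled library, with a log2 fold change of 5.80 ± 0.59 (adjusted p = 7.50e-05). Lama2 was lower, at 8.45 ± 0.700 CPM in bcatKO-labelled CAF and 62.8 ± 12.5 CPM in CAF. Integrins called lower included Itgb1, at 2229 ± 129.9 CPM in bcatKO-labelled CAF and 3328 ± 698 CPM in CAF, and Itgb3, at 44.1 ± 12.8 CPM in bcatKO-labelled CAF and 133 ± 38.4 CPM in CAF. The call of Itgb1 was lost without CAF replicate 1 or 3 or bcatKO-labelled replicate 1, 2 or 3 (adjusted p from 0.0877 to 0.161), with total counts as scaling (adjusted p = 0.108), without a filter (adjusted p = 0.0881) and in a test beyond 1.5-fold (adjusted p = 0.53). The call of Itgb3 was lost without CAF replicate 1 or bcatKO-labelled replicate 3 (adjusted p from 0.0554 to 0.0558).

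Of 22 matrix protease genes, 6 fell, near the 22.7% of all tested genes, and 2 rose, against 21.5%. Adam12, a metalloprotease of activated stroma, was at 0.257, 0.519 and 0.0577 CPM in bcatKO-labelled CAF, against 174, 208 and 112 CPM in CAF. Mmp3, stromelysin 1, was at 116, 102 and 72.3 CPM in bcatKO-labelled CAF, against 11.5, 7.15 and 5.30 CPM in CAF. The groups did not overlap in either, with log2 fold changes of -9.14 ± 1.05 and 3.61 ± 0.37 (adjusted p = 1.46e-04 and 7.88e-05), that of Adam12 -10.01 without bcatKO-labelled replicate 2. Plau, urokinase, was the other higher gene, at 891, 788 and 125 CPM in bcatKO-labelled CAF, against 141, 88.8 and 48.3 CPM in CAF, with bcatKO-labelled replicate 3 within the range of CAF. Its call was lost without CAF replicate 1, 2 or 3 or bcatKO-labelled replicate 1 or 2 (adjusted p from 0.0694 to 0.123), with limma-voom (adjusted p = 0.0552) and in a test beyond 1.5-fold (adjusted p = 0.0739). Higher members numbered 1 without CAF replicate 1, 2 or 3 or bcatKO-labelled replicate 1 or 2, and 4 without NF replicate 1. Lower members numbered 9 of 22 without NF replicate 1 or 3. With the 6 libraries compared alone, 11 of 21 were lower, against 4001 of all 13777 genes then tested. Of 8 protease inhibitor genes, 4 fell, and 1 rose without NF replicate 1. Reck, a membrane-anchored inhibitor of matrix metalloproteases, was at 20.2, 14.4 and 11.9 CPM in bcatKO-labelled CAF, against 36.1, 37.5 and 37.7 CPM in CAF, lower throughout, with a log2 fold change of -1.26 ± 0.25 (adjusted p = 0.00308).

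**Figure D3:**
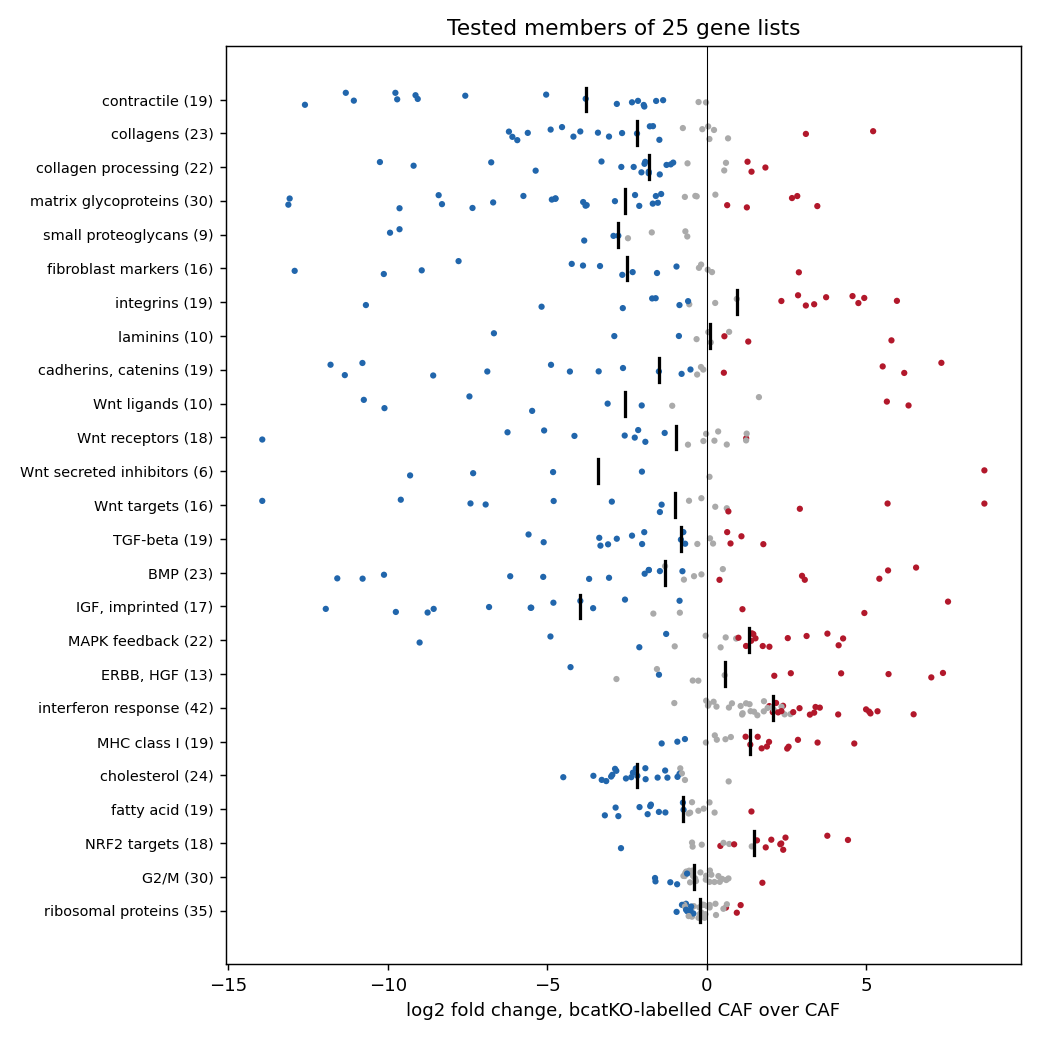
Log2 fold changes of bcatKO-labelled CAF over CAF (horizontal axis) for the tested members of 25 gene lists (rows, with the number tested), red for higher, blue for lower and grey for not called, with the list median as a black bar. Contractile, collagen, matrix and cholesterol genes lie mainly below 0, interferon, MHC class I, MAPK feedback and NRF2 genes mainly above 0, and integrins and laminins on both sides.

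Genes used to mark fibroblasts were checked against the source label. Of 16 tested markers, 11 fell and 1 rose in bcatKO-labelled CAF. Thy1, the surface glycoprotein CD90 (chr9:44043384-44048579), was at 0.193, 0.467 and 0.0577 CPM in bcatKO-labelled CAF, against 1755, 2187 and 1939 CPM in CAF. Pdgfrb, the beta receptor for platelet-derived growth factor, was at 41.4, 38.3 and 33.4 CPM in bcatKO-labelled CAF, against 552, 824 and 741 CPM in CAF. Pdgfra, the alpha receptor, was at 335, 298 and 269 CPM in bcatKO-labelled CAF, against 505, 587 and 639.7 CPM in CAF. Thy1 was at the edge of detection in bcatKO-labelled CAF, whereas both Pdgf receptors remained expressed at lower levels. The log2 fold changes were -12.91 ± 0.71 for Thy1 (-13.89 without bcatKO-labelled replicate 2), -4.23 ± 0.25 for Pdgfrb and -0.94 ± 0.22 for Pdgfra (adjusted p = 2.41e-06, 3.14e-06 and 0.00753). The call of Pdgfra was lost in a test beyond 1.5-fold (adjusted p = 0.0738). Cd34 was the 1 higher marker, at 33.6 ± 13.1 CPM in bcatKO-labelled CAF and 4.50 ± 0.466 CPM in CAF. Vim, given above, was at 5018 to 5796 CPM in the same 3 bcatKO-labelled libraries.

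Markers of other cell types were low or mixed. Of 12 lymphocyte markers 1, Lck, was tested, and it was not called. Trac, which was not tested with all 9 libraries, passed the filter and was called lower without CAF replicate 3, without any 1 bcatKO-labelled library and without any 1 NF library. The markers had summed levels of 0.808 to 1.25 CPM in bcatKO-labelled CAF and 1.77 to 2.18 CPM in CAF. Epithelial markers, 4 of 18 tested with 3 lower, summed to 2.51 to 4.26 CPM in bcatKO-labelled CAF and 42.4 to 44.5 CPM in CAF, most of it keratin 19. Krt8, Krt14, Krt17, Cldn7, Esrp1 and Trp63 had no count in bcatKO-labelled CAF. Without CAF replicate 1, bcatKO-labelled replicate 1, 2 or 3 or NF replicate 1, 2 or 3, from 6 to 8 epithelial markers passed the filter and 5 to 7 were lower, among them Krt5 and Krt17, which were not tested with all 9 libraries. Krt17 had no count in bcatKO-labelled CAF, so other libraries carried it through the filter, and a lower call was close to fixed. The same may hold for the other added markers and for Trac. Macrophage markers, 6 of 14 tested with 2 higher and 1 lower, summed to 23.5 to 36.7 CPM in bcatKO-labelled CAF and 7.21 to 11.7 CPM in CAF, led by the lysosomal gene Cd68. The higher ones numbered 1 without CAF replicate 1, 2 or 3 or bcatKO-labelled replicate 1 or 2 and 4 without NF replicate 1, and the lower one was lost without CAF replicate 1 or 2 or bcatKO-labelled replicate 1, 2 or 3. Melanocyte markers, 5 of 16 tested with 2 higher and 1 lower, summed to 601 to 906 CPM in bcatKO-labelled CAF and 83.0 to 202 CPM in CAF. Nearly all of that was Gpnmb, a lysosomal glycoprotein also made by other cells, while Tyr, Tyrp1 and Mlana had no count in bcatKO-labelled CAF. The call of Gpnmb was lost without CAF replicate 1 or 2 or bcatKO-labelled replicate 1, 2 or 3 (adjusted p from 0.0533 to 0.113) and in a test beyond 1.5-fold (adjusted p = 0.0552). That of Mitf was lost without CAF replicate 1 or 2 or bcatKO-labelled replicate 1 or 2 (adjusted p from 0.0518 to 0.0785) and in a test beyond 1.5-fold (adjusted p = 0.0737). That of Sox10 was lost without CAF replicate 1 or 2 or bcatKO-labelled replicate 1, 2 or 3 (adjusted p from 0.0634 to 0.17), with limma-voom (adjusted p = 0.195) and in a test beyond 1.5-fold (adjusted p = 0.0632).

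Endothelial markers had 3 of 8 tested members higher and 3 lower, against 21.5% and 22.7% of all tested genes. They were led by Eng, endoglin, at 266 ± 25.7 CPM in bcatKO-labelled CAF and 77.4 ± 16.8 CPM in CAF, while Cldn5 and Robo4 had no count in either group. Their summed level was 372 to 487 CPM in bcatKO-labelled CAF and 154 to 186 CPM in CAF. Among pericyte and smooth muscle markers 6 of 9 fell and 1 rose, with summed levels of 557 to 1145 CPM in bcatKO-labelled CAF and 323 to 441 CPM in CAF. Lmod1, which nucleates actin filaments in smooth muscle, was at 0.257, 0.260 and 0.173 CPM in bcatKO-labelled CAF, against 138, 132 and 108 CPM in CAF. The proteoglycan gene Cspg4, known as NG2, was at 829, 540.4 and 1131 CPM in bcatKO-labelled CAF, against 91.5, 100.5 and 84.7 CPM in CAF. These moved in opposite directions without overlap, with log2 fold changes of -9.06 ± 0.23 and 3.18 ± 0.58 (adjusted p = 1.21e-07 and 0.00193). Schwann and neural crest markers had 1 of 10 higher and 3 lower, against the same 21.5% and 22.7%. Their sums were 280.4 to 343 CPM in bcatKO-labelled CAF and 251 to 384 CPM in CAF. The higher one was lost without CAF replicate 1 or 3 or bcatKO-labelled replicate 3, 2 rose without NF replicate 3, and 1 fell without CAF replicate 2 or bcatKO-labelled replicate 1. Adipocyte markers had 1 of 4 higher and 3 lower, with sums of 15.5 to 16.2 CPM in bcatKO-labelled CAF and 113 to 239 CPM in CAF. The higher one, Cebpa, lost its call without CAF replicate 1 or 2 or bcatKO-labelled replicate 1, 2 or 3 (adjusted p from 0.0912 to 0.151) and in a test beyond 1.5-fold (adjusted p = 0.131). Lpl, lipoprotein lipase, was lower at 1.43 ± 0.381 CPM in bcatKO-labelled CAF and 148 ± 64.7 CPM in CAF. The part of these markers in the results was not tested.

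Skeletal muscle markers had 5 of 7 tested members lower and 1 higher, and the muscle factors Myod1, Myf5, Myog and Myf6 had no count in bcatKO-labelled CAF. The 1 higher gene was Chrna1, the alpha subunit of the muscle acetylcholine receptor, at 393, 405 and 389 CPM in bcatKO-labelled CAF, against 3.59, 1.86 and 1.43 CPM in CAF. Acta1, skeletal actin, was at 0.321, 0.0519 and 0.173 CPM in bcatKO-labelled CAF, against 247, 173 and 91.6 CPM in CAF. Their log2 fold changes were 7.44 ± 0.37 (adjusted p = 1.40e-06) and -9.88 ± 0.58 (adjusted p = 3.04e-06), that of Acta1 -10.52 without bcatKO-labelled replicate 1. Bone and cartilage genes rose in 5 of 7 tested cases and fell in 1, Matn3. Besides Dmp1 and Spp1, Mgp, an inhibitor of calcification, was at 262, 417 and 523 CPM in bcatKO-labelled CAF, against 11.2, 16.2 and 5.63 CPM in CAF, and Sox9, the cartilage transcription factor, at 175 ± 3.59 CPM in bcatKO-labelled CAF and 51.3 ± 9.22 CPM in CAF. Mgp was separate in all libraries, with a log2 fold change of 5.19 ± 0.62 (adjusted p = 1.89e-04).

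HOX genes, which record position along the body axis, were lower cluster by cluster. In cluster B 6 of 8 tested genes fell and in cluster D 3 of 3, against 22.7% of all tested genes. In cluster A 7 of 7 fell and in cluster C 8 of 8. Genes of clusters A and C were near 0 in bcatKO-labelled CAF and NF, so they passed the filter only through the CAF libraries. That those tested were lower was thus close to fixed by the filter, and no share is set beside them. Hoxc8 (chr15:102990607-102994111) had no count in any bcatKO-labelled library and was at 59.5, 52.0 and 67.5 CPM in CAF, at least 1041-fold lower. Hoxc9 and Hoxc10 had no count in bcatKO-labelled CAF either, and were at least 445-fold and 644-fold lower. Summed over the 9 genes of cluster C, bcatKO-labelled libraries held 0 to 0.0519 CPM, CAF libraries 174 to 210.4 CPM and NF libraries 0.0615 to 0.384 CPM. Cluster B stayed expressed, with 27.2 to 34.4 CPM in bcatKO-labelled CAF and 143 to 198 CPM in CAF. Hoxb9 was at 3.21, 1.35 and 6.99 CPM in bcatKO-labelled CAF, against 63.5, 90.1 and 108 CPM in CAF, with a log2 fold change of -4.51 ± 0.73 (adjusted p = 0.00101), or -5.27 without bcatKO-labelled replicate 3. In cluster D, 5 or 6 genes passed the filter without bcatKO-labelled replicate 1 or 2 or NF replicate 1, 2 or 3, and 5 or 6 were then lower, Hoxd1 among the added ones. Lower genes were 4 of 6 without bcatKO-labelled replicate 3, 4 of 5 without CAF replicate 2 and 2 of 3 without CAF replicate 3. The added genes failed the filter with all 9 libraries. They may have passed mainly through CAF, which would have set their direction.

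**Figure D4:**
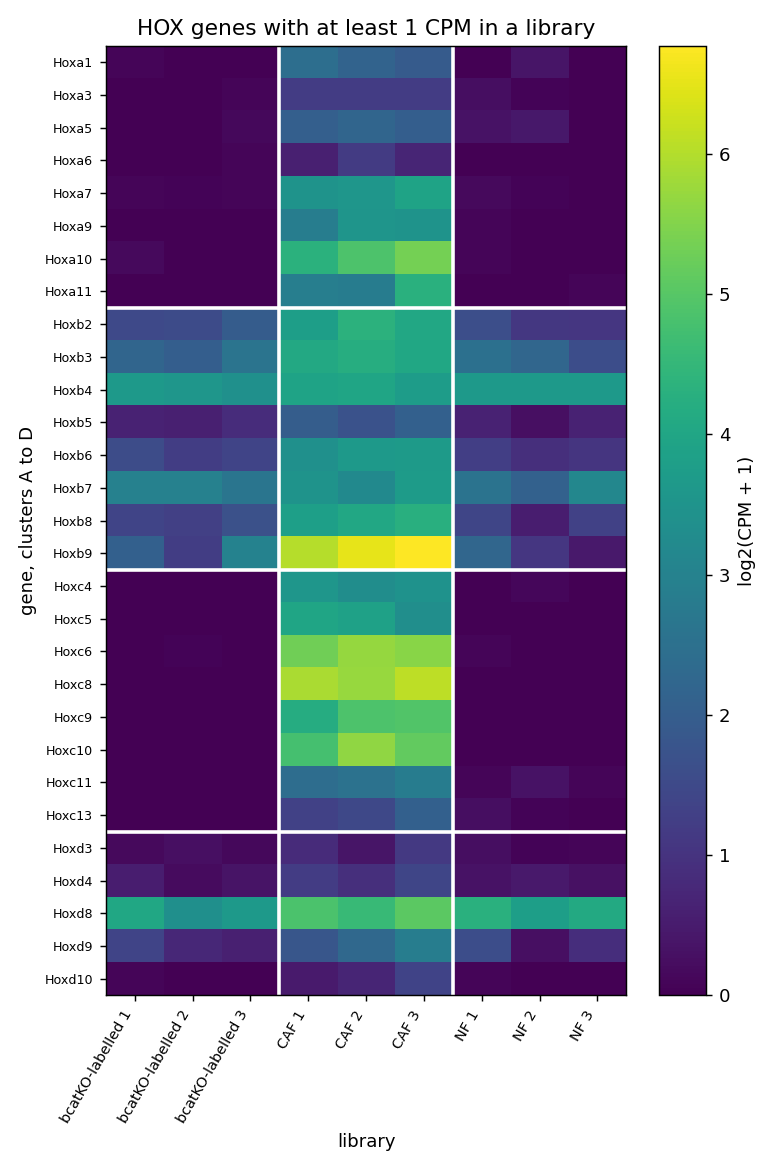
Levels of the 29 HOX genes that reached 1 CPM in any library, as log2(CPM + 1) by colour, with genes of clusters A to D down the page and libraries of bcatKO-labelled CAF, CAF and NF from left to right. Clusters A and C are dark in all bcatKO-labelled and NF libraries and lit in the 3 CAF libraries, while Hoxb4, Hoxb7 and Hoxd8 are seen in all 9.

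Other positional transcription factors went both ways, with 13 of 30 higher and 14 lower. Tbx20, a T-box factor of the heart and midline mesoderm, was at 56.3, 62.3 and 43.9 CPM in bcatKO-labelled CAF, against 0, 0.0518 and 0 CPM in CAF, higher by 3162-fold (95% counting interval 567 to 124937). Pax9, a paired-box factor of pharyngeal and jaw tissue, was at 40.2, 41.7 and 36.1 CPM in bcatKO-labelled CAF, against 0.392, 1.09 and 0.477 CPM in CAF. Lhx6, a LIM factor of jaw and forebrain, was at 42.7, 48.5 and 25.1 CPM in bcatKO-labelled CAF, against 1.46, 0.932 and 0.191 CPM in CAF. Tbx15, a T-box factor of skin and limb, was at 12.5, 11.3 and 9.12 CPM in bcatKO-labelled CAF, against 202, 212 and 206 CPM in CAF. En1, engrailed 1, which marks ventral limb and dermal lineages, was at 0.129, 0.208 and 0.0577 CPM in bcatKO-labelled CAF, against 28.8, 36.5 and 41.2 CPM in CAF. None of these 5 overlapped between the groups, and En1 had a log2 fold change of -7.98 ± 0.35 (adjusted p = 8.11e-07) and Pax9 one of 5.90 ± 0.43 (adjusted p = 1.07e-05). The Iroquois factor Irx1 was at 0.193, 0 and 0 CPM in bcatKO-labelled CAF, against 78.4, 135 and 132 CPM in CAF, higher in CAF by 2026-fold (95% counting interval 693 to 9827). The call of Tbx3, at 66.9 ± 11.8 CPM in bcatKO-labelled CAF and 31.3 ± 1.43 CPM in CAF, was lost without CAF replicate 1, 2 or 3 or bcatKO-labelled replicate 1 or 2 (adjusted p from 0.0786 to 0.0936) and in a test beyond 1.5-fold (adjusted p = 0.117). Factors linked to epithelial-mesenchymal transition had 5 of 12 higher and 4 lower, with Twist2 at 16.0 ± 4.31 CPM in bcatKO-labelled CAF and 235 ± 46.7 CPM in CAF and Foxc2 at 45.2 ± 7.20 CPM in bcatKO-labelled CAF and 5.79 ± 0.553 CPM in CAF. Higher ones numbered 3 without CAF replicate 2 or 3 or bcatKO-labelled replicate 2 or 3.

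TGF-beta signalling is known to drive fibroblast activation. Of 19 TGF-beta and activin genes, 12 fell, against 22.7% of all tested genes, and 4 rose, near the 21.5% of all tested genes. Tgfb3, a ligand, was at 21.1, 20.9 and 16.0 CPM in bcatKO-labelled CAF, against 171, 194 and 231 CPM in CAF. Lrrc32, which tethers latent TGF-beta to the cell surface, was at 8.996, 8.82 and 3.75 CPM in bcatKO-labelled CAF, against 372, 505 and 157 CPM in CAF. Inhbb, an activin subunit, was at 5.01, 3.74 and 1.91 CPM in bcatKO-labelled CAF, against 121, 157 and 89.1 CPM in CAF. All 3 were lower in every bcatKO-labelled library, with log2 fold changes of -3.36 ± 0.18, -5.58 ± 0.86 and -5.11 ± 0.40 (adjusted p = 2.41e-06, 7.71e-04 and 1.56e-05). The higher members were Tgfb2, Smad3, Eng and Ltbp1. Tgfb2, another ligand, was at 21.9 ± 2.30 CPM in bcatKO-labelled CAF and 10.3 ± 1.86 CPM in CAF, and Smad3, a signal transducer, was at 119 ± 14.2 CPM in bcatKO-labelled CAF and 70.8 ± 5.98 CPM in CAF. The call of Smad3 was lost in a test beyond 1.5-fold (adjusted p = 0.144). In the BMP branch 12 of 23 fell and 6 rose. Bmp2, a ligand, was at 283, 273 and 226 CPM in bcatKO-labelled CAF, against 2.41, 2.38 and 3.39 CPM in CAF. Grem1, the antagonist gremlin 1, was at 3259, 3721 and 4089 CPM in bcatKO-labelled CAF, against 569, 393 and 426 CPM in CAF. Gdf15, a stress-induced ligand, was at 97.5, 96.3 and 152 CPM in bcatKO-labelled CAF, against 1.51, 3.47 and 3.06 CPM in CAF. Each was higher without overlap, with log2 fold changes of 6.57 ± 0.31, 2.99 ± 0.49 and 5.42 ± 1.01 (adjusted p = 1.18e-06, 0.00105 and 0.00225). Bmpr1b, a type I receptor, was lower, at 0.771, 0.260 and 0.173 CPM in bcatKO-labelled CAF, against 38.7, 28.4 and 17.9 CPM in CAF, with a log2 fold change of -6.16 ± 0.96 (adjusted p = 8.26e-04), or -6.97 without bcatKO-labelled replicate 1. The call of Bmp6 was lost without any 1 of the 6 libraries (adjusted p from 0.0576 to 0.109) and in a test beyond 1.5-fold (adjusted p = 0.0633). That of Smad5 was lost without CAF replicate 2 or bcatKO-labelled replicate 1 or 3 (adjusted p from 0.0567 to 0.0735), without a filter (adjusted p = 0.0932) and in a test beyond 1.5-fold (adjusted p = 1).

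Of 20 genes known as targets of YAP and TEAD, which respond to cell tension, 11 fell and 5 rose. Over all tested genes 22.7% fell and 21.5% rose. Ccn2, connective tissue growth factor, was at 14.5, 5.45 and 5.89 CPM in bcatKO-labelled CAF, against 1097, 896 and 670.1 CPM in CAF. Ankrd1 was at 2.18, 1.66 and 1.33 CPM in bcatKO-labelled CAF, against 92.0, 55.6 and 28.7 CPM in CAF. Both were low in all bcatKO-labelled libraries, with log2 fold changes of -6.69 ± 0.92 and -5.09 ± 0.91 (adjusted p = 3.92e-04 and 0.00174), that of Ccn2 -7.29 without bcatKO-labelled replicate 1. The higher members were Igfbp3, Gadd45a, Tgfb2, Ptpn14 and Amotl1, of which Amotl1 lost its call without any 1 of the 6 libraries (adjusted p from 0.0537 to 0.0965) and in a test beyond 1.5-fold (adjusted p = 0.222).

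Growth factor genes moved both ways. Of 17 PDGF and FGF genes, 10 fell and 4 rose. Pdgfd, a ligand, was at 2.38, 1.56 and 1.91 CPM in bcatKO-labelled CAF, against 60.4, 45.7 and 73.7 CPM in CAF. Fgf10, a stromal ligand for epithelium, was at 0.835, 0.208 and 0.0577 CPM in bcatKO-labelled CAF, against 27.6, 16.5 and 23.1 CPM in CAF. Pdgfa was higher, at 107 ± 13.6 CPM in bcatKO-labelled CAF and 28.3 ± 15.04 CPM in CAF. Pdgfd and Fgf10 were lower in all bcatKO-labelled libraries, with log2 fold changes of -4.95 ± 0.50 and -5.96 ± 0.83 (-7.29 without bcatKO-labelled replicate 1). Of 13 ERBB and HGF genes, 6 rose and 2 fell. The EGF-family ligands Areg, Btc and Nrg2 rose. Areg, amphiregulin, was at 104, 117 and 64.9 CPM in bcatKO-labelled CAF, against 0.952, 0.880 and 0.334 CPM in CAF. Btc, betacellulin, was at 45.4, 48.7 and 43.8 CPM in bcatKO-labelled CAF, against 1.23, 1.09 and 0.334 CPM in CAF. Nrg2, a neuregulin, was at 11.2, 11.3 and 16.4 CPM in bcatKO-labelled CAF, against 0.112, 0.104 and 0 CPM in CAF. Each was at or below 1.23 CPM in every CAF library. The receptors Egfr and Erbb2 were the 2 lower members. Egfr was at 6.75, 6.80 and 9.41 CPM in bcatKO-labelled CAF, against 157, 180.5 and 104 CPM in CAF, with a log2 fold change of -4.26 ± 0.32 (adjusted p = 1.32e-05), beside 7.05 ± 0.61 for Areg (adjusted p = 2.89e-05).

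Of 17 insulin-like growth factor and imprinted growth genes, 12 fell and 3, Igfbp3, Igfbp4 and Igf2r, rose. Peg3, a paternally expressed zinc finger gene, was at 0.193, 0 and 0.0577 CPM in bcatKO-labelled CAF, against 319, 254 and 416 CPM in CAF. H19, a maternally expressed noncoding RNA, was at 0.386, 1.56 and 0.404 CPM in bcatKO-labelled CAF, against 206, 289 and 423 CPM in CAF. Igfbp5 was at 1.799, 1.76 and 4.16 CPM in bcatKO-labelled CAF, against 562, 369 and 2394 CPM in CAF, with CAF replicate 3 above the other 2. All 3 were near 0 in bcatKO-labelled CAF, with log2 fold changes of -11.94 ± 0.47, -8.56 ± 0.67 and -8.75 ± 1.18 (adjusted p = 5.22e-07, 1.54e-05 and 3.57e-04). These became -13.24 for Peg3 without bcatKO-labelled replicate 1 and -11.32 without replicate 2, -9.58 for H19 without replicate 2, and -7.50 for Igfbp5 without CAF replicate 3. Igfbp4 was at 767, 905 and 371 CPM in bcatKO-labelled CAF, against 24.6, 26.9 and 14.6 CPM in CAF, with a log2 fold change of 4.95 ± 0.57 (adjusted p = 1.45e-04). The call of Igf2r was lost without CAF replicate 1, 2 or 3 or bcatKO-labelled replicate 3 (adjusted p from 0.0513 to 0.0604). A test beyond 1.5-fold also ended it (adjusted p = 0.0733).

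Genes that MAP kinase signalling induces as feedback or output rose in 13 of 22 cases and fell in 4, with a median log2 fold change of 1.32. Etv1, an ETS factor, was at 121, 119 and 100.3 CPM in bcatKO-labelled CAF, against 8.29, 5.38 and 5.63 CPM in CAF. Epha2, an ephrin receptor, was at 519, 531 and 746 CPM in bcatKO-labelled CAF, against 51.9, 48.3 and 29.7 CPM in CAF. The 4 lower members were Dusp1, Spry1, Epha4 and Il1rl1, the receptor of interleukin 33. Il1rl1 was at 28.7, 37.0 and 18.8 CPM in bcatKO-labelled CAF, against 1194, 812 and 506 CPM in CAF. The groups did not overlap in any of these 3, with log2 fold changes of 4.14 ± 0.29, 3.79 ± 0.37 and -4.89 ± 0.41 (adjusted p = 8.27e-06, 5.76e-05 and 2.33e-05). Immediate early genes, which respond within minutes to stimuli and handling, had 6 of 19 higher and 6 lower. Over all tested genes the shares were 21.5% and 22.7%. Fos was at 1.67, 1.40 and 1.44 CPM in bcatKO-labelled CAF, against 38.6, 46.5 and 81.7 CPM in CAF. Atf3 was at 29.6, 33.3 and 55.9 CPM in bcatKO-labelled CAF, against 3.53, 4.66 and 6.21 CPM in CAF. Fos was lower and Atf3 higher in bcatKO-labelled CAF, each without overlap. Lower ones numbered 3 without CAF replicate 2 or bcatKO-labelled replicate 2.

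In the Notch pathway 3 of 11 rose and 2 fell, against 21.5% and 22.7% of all tested genes. Dll1, a ligand, was at 22.04, 21.7 and 8.43 CPM in bcatKO-labelled CAF, against 0.672, 0.673 and 2.39 CPM in CAF. The target Hes1 was at 7.84, 7.89 and 16.5 CPM in bcatKO-labelled CAF, against 72.2, 76.2 and 69.4 CPM in CAF, so that the ligand was higher and the target lower in bcatKO-labelled CAF. Their log2 fold changes were 3.78 ± 0.80 (adjusted p = 0.00446), or 4.68 without CAF replicate 3, and -2.75 ± 0.32 (adjusted p = 1.42e-04), and 5 pathway genes were higher without NF replicate 1. In the hedgehog pathway 8 of 12 fell and 2, the ligand gene Dhh and the receptor gene Ptch1, rose. Dhh was at 19.9, 22.1 and 19.2 CPM in bcatKO-labelled CAF, against 0.504, 0.311 and 0.143 CPM in CAF. The coreceptor gene Boc was at 0.643, 0.208 and 0.289 CPM in bcatKO-labelled CAF, against 44.9, 51.8 and 42.0 CPM in CAF. The transcription factor gene Gli2 was at 1.93, 0.778 and 1.04 CPM in bcatKO-labelled CAF, against 21.0, 32.3 and 36.0 CPM in CAF. The ligand gene was higher in each bcatKO-labelled library, and Boc and Gli2 were lower in each, with log2 fold changes of 6.00 ± 0.35, -6.94 ± 0.40 and -4.58 ± 0.48 (adjusted p = 2.83e-06, 2.85e-06 and 8.47e-05).

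Chemokine genes and receptors had 9 of 18 tested members lower and 7 higher. Cxcl12, the stromal ligand of CXCR4, was at 3.53, 4.10 and 4.45 CPM in bcatKO-labelled CAF, against 275, 262 and 68.6 CPM in CAF. Cxcl14 was at 0.0643, 0.363 and 0 CPM in bcatKO-labelled CAF, against 128, 214 and 60.5 CPM in CAF. Cxcl5, a neutrophil attractant, was at 0.0643, 0.104 and 0 CPM in bcatKO-labelled CAF, against 107, 97.2 and 82.7 CPM in CAF. These ligands were low in each bcatKO-labelled library, with log2 fold changes of -5.65 ± 0.66 and -9.72 ± 0.87 for the first 2 (adjusted p = 1.59e-04 and 3.19e-05), and Cxcl5 was higher in CAF by 1652-fold (95% counting interval 565 to 8015). For Cxcl14 it was -11.81 without bcatKO-labelled replicate 2. Cxcr4, the receptor, was at 7.90, 4.88 and 5.14 CPM in bcatKO-labelled CAF and had no count in CAF, at least 114-fold higher. The call of Cxcl10, an interferon-induced ligand at 24.5 ± 14.6 CPM in bcatKO-labelled CAF and 2.91 ± 1.58 CPM in CAF, was lost without any 1 of the 6 libraries (adjusted p from 0.053 to 0.121), with limma-voom (adjusted p = 0.0503) and in a test beyond 1.5-fold (adjusted p = 0.0642). Cytokines and their receptors had 7 of 18 higher and 7 lower. Il33, an alarmin, was at 363, 426 and 323 CPM in bcatKO-labelled CAF, against 4.20, 3.31 and 3.82 CPM in CAF. Il34, a ligand of the CSF1 receptor, was at 78.1, 91.3 and 89.6 CPM in bcatKO-labelled CAF, against 1.51, 2.17 and 1.00 CPM in CAF. Both were higher in each bcatKO-labelled library, with log2 fold changes of 6.61 ± 0.43 and 5.79 ± 0.31 (adjusted p = 5.19e-06 and 2.14e-06), while Osmr, the oncostatin M receptor, was lower, at 10.5 ± 3.43 CPM in bcatKO-labelled CAF and 247 ± 29.3 CPM in CAF.

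Interferon-response genes rose, and their count depended on the libraries in the fit. Of 42 tested members, 18 rose, against 21.5% of all tested genes, and 0 fell by edgeR, with a median log2 fold change of 2.07. Rsad2, the antiviral enzyme viperin, was at 100.2, 124 and 222 CPM in bcatKO-labelled CAF, against 2.30, 2.90 and 5.59 CPM in CAF. Ifit3, an antiviral RNA-binding protein, was at 225, 284 and 471 CPM in bcatKO-labelled CAF, against 5.04, 6.83 and 16.6 CPM in CAF. Ifi44 was at 254, 348 and 452 CPM in bcatKO-labelled CAF, against 4.99, 7.04 and 17.8 CPM in CAF. Each was higher in all bcatKO-labelled libraries, highest in replicate 3, with log2 fold changes of 5.36 ± 1.12, 5.10 ± 1.13 and 5.14 ± 1.16 (adjusted p = 0.00398, 0.00554 and 0.00599). Without CAF replicate 3 these were 5.78 for Ifit3 and 5.87 for Ifi44. In NF, Ifit3 was at 221, 45.2 and 5.91 CPM, and this spread entered the shared error of the fit. The count of higher members was 10 without CAF replicate 1, 10 without CAF replicate 2, 11 without bcatKO-labelled replicate 3, 31 without NF replicate 1, 32 without NF replicate 3 and 35 with the 6 libraries compared alone. One member, Ifi27, was below an unadjusted p of 0.05 in the lower direction, and 1 was called lower by DESeq2, 0 by limma-voom and 1 without NF replicate 2 or 3 or with the 6 libraries alone.

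The interferon-stimulated response element, the site that STAT and IRF complexes bind, was searched as 2 copies of GAAA with any 2 bases between them, on both strands of the same RefSeq promoter windows. It was present in 15 of 29 tested members with a promoter in the table (51.7%), in 8 of the 14 of these that were called higher (57.1%) and in 3.78% of all 10405 tested genes with a promoter. Windows around the match, in capitals, are shown for 5 higher genes, read on the strand of the gene.
Rsad2, chr12:26456538-26456597, minus strand: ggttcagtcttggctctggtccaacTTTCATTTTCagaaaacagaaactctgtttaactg
Ifit3, chr19:34583348-34583407, plus strand: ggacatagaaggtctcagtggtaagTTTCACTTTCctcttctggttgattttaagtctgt
Ifit3b, chr19:34607744-34607803, plus strand: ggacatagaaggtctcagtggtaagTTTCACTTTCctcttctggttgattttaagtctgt
Oas3, chr5:120777700-120777759, minus strand: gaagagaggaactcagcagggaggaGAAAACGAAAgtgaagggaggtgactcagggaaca
Ifit1, chr19:34640760-34640819, plus strand: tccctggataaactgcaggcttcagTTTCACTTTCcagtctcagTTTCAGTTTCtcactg
Ifit3 and Ifit3b are near-identical neighbours with the same letters in this window, and reads shared between such copies make the counts of each uncertain. Oas3, which makes the second messenger 2-5A, was at 11.1, 13.8 and 16.5 CPM in bcatKO-labelled CAF, against 0.560, 0.673 and 1.10 CPM in CAF. Ifit1 was at 301, 305 and 549.6 CPM in bcatKO-labelled CAF, against 16.1, 21.3 and 70.6 CPM in CAF. The call of Ifit1 was lost without CAF replicate 1 or 2 or bcatKO-labelled replicate 1, 2 or 3 (adjusted p from 0.055 to 0.119) and in a test beyond 1.5-fold (adjusted p = 0.0555). A match does not show binding.

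Of 19 genes of antigen presentation on MHC class I, 11 rose and 3 fell. Summed over the list, levels were 3733 to 4273 CPM in bcatKO-labelled CAF and 4198 to 4461 CPM in CAF, so the total was not higher. H2-D1, a classical heavy chain, was at 394, 440.2 and 425 CPM in bcatKO-labelled CAF, against 76.2, 107 and 156 CPM in CAF. Nlrc5, the transactivator of class I genes, was at 41.4, 54.0 and 64.3 CPM in bcatKO-labelled CAF, against 3.08, 3.83 and 7.31 CPM in CAF. B2m, the shared light chain, was at 914, 1153 and 1157 CPM in bcatKO-labelled CAF, against 268, 319.9 and 385 CPM in CAF. All 3 were higher in every bcatKO-labelled library, with log2 fold changes of 1.89 ± 0.25, 3.48 ± 0.54 and 1.73 ± 0.30 (adjusted p = 3.29e-04, 8.18e-04 and 0.0015). H2 genes share near-identical copies, so single members are uncertain. The 3 lower genes were H2-T22 and the chaperones Calr and Pdia3. Higher members numbered 7 without CAF replicate 1, and lower ones 1 without CAF replicate 1 or bcatKO-labelled replicate 1. Complement genes had 5 of 13 lower and 2 higher, against 22.7% and 21.5% of all tested genes. Cd55, which protects cells from complement, was at 0.0643, 0.104 and 0 CPM in bcatKO-labelled CAF, against 87.0, 73.4 and 34.0 CPM in CAF, higher in CAF by 1102-fold (95% counting interval 377 to 5344). Without CAF replicate 1 or 3, 1 complement gene was higher, and without NF replicate 1 there were 5. Lower ones numbered 3 without bcatKO-labelled replicate 3.

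**Figure D5:**
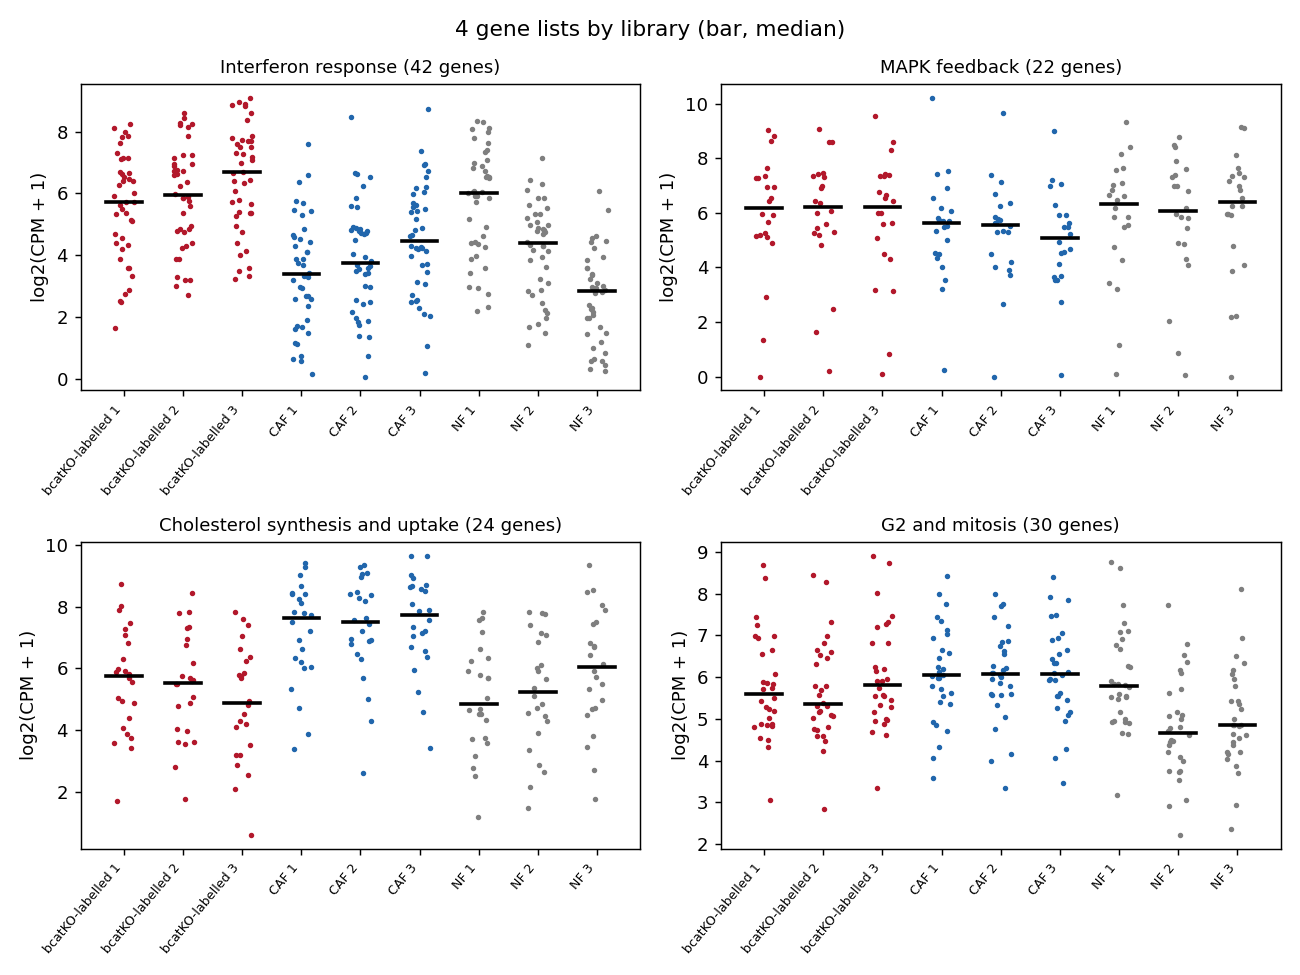
Levels of the tested members of 4 gene lists in each library as log2(CPM + 1) on the vertical axes, with libraries of bcatKO-labelled CAF, CAF and NF from left to right, a point per gene and a bar at the median. Interferon-response medians are 5.73 to 6.68 in bcatKO-labelled CAF and 3.38 to 4.46 in CAF, and MAPK feedback medians 6.19 to 6.21 and 5.08 to 5.62. Cholesterol medians are 4.88 to 5.74 in bcatKO-labelled CAF and 7.49 to 7.72 in CAF, and G2 and mitosis medians 5.35 to 5.82 and 6.04 to 6.07.

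Of 30 genes of the G1 to S transition, 9 rose and 8 fell, near the shares of 21.5% and 22.7% over all tested genes. Ccnd1 rose, as given above, while Ccnd2, the gene of cyclin D2, was lower at 334, 352 and 458 CPM in bcatKO-labelled CAF, against 1451, 1423 and 1516 CPM in CAF, with a log2 fold change of -1.94 ± 0.40 (adjusted p = 0.00358). Cdt1, a replication licensing factor, was at 105 ± 28.2 CPM in bcatKO-labelled CAF and 22.4 ± 3.67 CPM in CAF. Of 30 G2 and mitosis genes, 6 fell, near the share over all tested genes, and 1, Cdc25b, rose. Kif20a, a mitotic kinesin, was at 57.7, 50.4 and 59.1 CPM in bcatKO-labelled CAF, against 163, 172 and 177 CPM in CAF, and Cdc20, an activator of the anaphase complex, at 27.2 ± 3.79 CPM in bcatKO-labelled CAF and 82.4 ± 9.61 CPM in CAF. Without NF replicate 1, 14 members fell and 4 rose. Among cell cycle inhibitors and p53 targets 6 of 23 fell and 5 rose, near the shares over all tested genes. Cdkn2a, which encodes the inhibitors p16 and p19ARF (chr4:89274471-89294653), was at 0, 0 and 0.0577 CPM in bcatKO-labelled CAF, against 27.3, 40.2 and 41.5 CPM in CAF, higher in CAF by 1916-fold (95% counting interval 344 to 75721). Its neighbour Cdkn2b, the gene of p15, was at 1.03, 0.519 and 0.346 CPM in bcatKO-labelled CAF, against 32.4, 37.2 and 43.9 CPM in CAF. Both were near 0 in every bcatKO-labelled library, and Cdkn2b had a log2 fold change of -5.91 ± 0.61 (adjusted p = 7.48e-05). Higher members numbered 2 without CAF replicate 2 and 3 without CAF replicate 1 or 3 or bcatKO-labelled replicate 1, 2 or 3, and lower ones 10 without NF replicate 1.

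Cholesterol synthesis and uptake fell together. Of 24 tested members, 20 fell, against 22.7% of all tested genes, with a median log2 fold change of -2.19, and 20 to 22 fell without any 1 library. By edgeR over all 9 libraries 0 rose, as with DESeq2, with limma-voom and at an unadjusted p under 0.05. With the 6 libraries compared alone, 1 member was called higher. Hmgcs1, which makes the HMG-CoA of the mevalonate pathway, was at 77.6, 70.7 and 53.7 CPM in bcatKO-labelled CAF, against 627, 541 and 802 CPM in CAF. Mvd, a decarboxylase later in that pathway, was at 15.9, 15.4 and 10.4 CPM in bcatKO-labelled CAF, against 79.6, 148 and 141 CPM in CAF. Every bcatKO-labelled library lay below every CAF library, with log2 fold changes of -3.29 ± 0.28 and -3.15 ± 0.35 (adjusted p = 2.84e-05 and 1.16e-04). The sterol regulatory element, searched as TCACNCCAC on both strands, was in the promoter window of 1 of 16 members in the RefSeq table (6.25%), against 1.42% of all tested genes with a promoter. That match, in Hmgcs1, is shown in capitals.
Hmgcs1, chr13:119690189-119690247, plus strand: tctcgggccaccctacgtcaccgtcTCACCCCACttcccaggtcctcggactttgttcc
Fatty acid genes had 11 of 19 lower and 1, the acyl-CoA synthetase gene Acsl4, higher. Acly, which makes cytosolic acetyl-CoA, was at 242 ± 40.4 CPM in bcatKO-labelled CAF and 809.7 ± 83.2 CPM in CAF, and Elovl6, an elongase, at 48.9 ± 14.96 CPM in bcatKO-labelled CAF and 210.0 ± 23.3 CPM in CAF. The call of Scd2, at 816 ± 338 CPM in bcatKO-labelled CAF and 2778 ± 315 CPM in CAF, was lost without bcatKO-labelled replicate 3 (adjusted p = 0.059).

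Antioxidant targets of NRF2 rose in 11 of 18 cases and fell in 1, Gsta4. Slc7a11, the cystine importer, was at 285, 276 and 432 CPM in bcatKO-labelled CAF, against 14.5, 13.3 and 18.1 CPM in CAF. Nqo1, a quinone reductase, was at 207, 173 and 195 CPM in bcatKO-labelled CAF, against 16.6, 14.7 and 10.3 CPM in CAF. Both were higher in each bcatKO-labelled library, with log2 fold changes of 4.44 ± 0.74 and 3.79 ± 0.60 (adjusted p = 0.0012 and 9.06e-04). Gclm, a subunit of the glutathione synthesis enzyme, was called higher but lost its call without CAF replicate 2 or 3 (adjusted p from 0.0543 to 0.0654). Of 20 genes of the ATF4 stress response and serine synthesis, 4 rose, near the 21.5% of all tested genes. Lower ones numbered 2, against 22.7%, and 10 were higher without NF replicate 1. Vldlr, a lipoprotein receptor, was at 366 ± 19.5 CPM in bcatKO-labelled CAF and 42.8 ± 8.48 CPM in CAF. Of 28 glycolysis and hypoxia genes, 6 rose, near the 21.5% of all tested genes, and 3 fell, against 22.7%. Without NF replicate 1, 6 fell. Car9, carbonic anhydrase 9, was at 17.1, 20.2 and 6.52 CPM in bcatKO-labelled CAF, against 0.504, 0.311 and 0.334 CPM in CAF. Adm, adrenomedullin, was at 8.55, 7.99 and 3.69 CPM in bcatKO-labelled CAF, against 61.0, 66.1 and 58.1 CPM in CAF. Both are known hypoxia targets and they moved in opposite directions, with log2 fold changes of 5.24 ± 0.50 and -3.19 ± 0.47 (adjusted p = 5.02e-05 and 5.78e-04).

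Lists that track RNA quality and general expression had called members in both directions. Of 35 ribosomal protein genes, 3 rose, against 21.5% of all tested genes, and 8 fell, near 22.7%. Without 1 library 0 to 3 rose and 3 to 12 fell, with 3 lower without CAF replicate 2 or bcatKO-labelled replicate 1, and with total counts as scaling 4 fell. Of 7 tested protein-coding genes of the mitochondrial genome, 2, mt-Co1 and mt-Nd4, rose, and both calls were lost without any 1 of the 6 libraries. Of 10 histone genes, 1 rose and 5 fell, with 3 lower without CAF replicate 2 or bcatKO-labelled replicate 1 or 3 and 2 higher without NF replicate 1. Of 14 housekeeping genes, 1, B2m, rose and 5 fell, and Gapdh and Hprt were among the 8 not called. The median log2 fold change of that list was -0.06. Its summed level was lower, at 5760 to 6213 CPM in bcatKO-labelled CAF and 9971 to 12189 CPM in CAF. Without CAF replicate 2 or 3 or bcatKO-labelled replicate 1, 2 or 3, or with total counts as scaling, 3 housekeeping genes were lower. With total counts as scaling, 3 were also higher. Called genes were spread over the genome, with 38.6% of tested genes called on chromosome 17 and 47.5% on chromosome X, the lowest and highest shares among the autosomes and X.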

How the data were processed

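Gene-level read counts of 9 libraries were used, as the authors deposited them, with no normalization. The submitters' processing notes name bcl2fastq, TopHat, edgeR and mm10, without versions or roles. No counting tool, annotation or strand setting is named in the sources used here, so reads of overlapping, antisense or near-identical genes cannot be told apart. The table of the whole series and the tables of single libraries held the same counts. Of 51912 gene IDs, 51633 matched a symbol, and coordinates are those of GRCm38. Libraries were grouped by their source and genotype labels.

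Genes kept by edgeR's filterByExpr were tested over all 9 libraries with edgeR 4.0.16 (R 4.3.3), with TMM scaling, the quasi-likelihood F test and Benjamini-Hochberg adjustment over 14314 genes. Adjusted p-values are from that test unless another tool is named, and a call needs one under 0.05. The error of a log2 fold change, given as SE, was derived from that test, as its size divided by the square root of F. For genes near 0 in a group it can be smaller than the shift seen without 1 library, as for Peg3. Genes without a count in a group are given as bounds against 3 counts over that group, and those with 1 to 3 counts as a ratio with an exact 95% interval that covers counting error only. The code was tested on simulated data. Alternatives used RLE or total-count scaling, other filters, DESeq2 1.42.0, limma-voom (limma 3.58.1), a test beyond 1.5-fold, the 6 libraries alone, counts without Gm42418 and 1 library left out.

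Members and lists were chosen with earlier results of these data known. Named genes were Ctnnb1, the 12 largest changes per direction at a mean of at least 5 CPM without overlap, up to 4 called members per list at that level, called members against their list's majority, the 5 genes with the most counts per group or with no count in the other group, the leading marker of each other cell type, and housekeeping and sex-linked genes. Some genes that this rule names are not reported here. Other genes with printed values, such as Acta2, Postn, Axin2, Lef1, Pdgfra, Tbx15, Cnn2, Oas3, Ifit1 and Mid1-ps1, were chosen after their values were seen. Promoter windows are from RefSeq (GRCm38.p6), with 29 of 42 interferon, 16 of 24 cholesterol and 16 of 19 contractile genes matched.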

Additional observations from a re-analysis of the deposited data

How the results depend on the processing

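Calls numbered 6332 and changed by less than 1.5 times with RLE or total-count scaling, other filters, DESeq2, limma-voom, the 6 libraries alone and without Gm42418. They numbered 3829 (1769 higher and 2060 lower) in a test beyond 1.5-fold, and 4966 to 7887 with 1 library left out, lowest without bcatKO-labelled replicate 3 and highest without NF replicate 1. No called gene was called in the opposite direction under any of them. Ctnnb1 had a log2 fold change of -0.29 with total counts, -0.41 without a filter and -0.43 in the test beyond 1.5-fold, none of them called, and -0.45 to -0.41 without 1 of the 6 libraries. Called list members numbered 587 and changed by less than 1.5 times under every alternative. Of 325 named genes that were called, 255 kept call and direction under every alternative, and the test beyond 1.5-fold ended the most calls (59). Reversals touched genes that were not called: with 1 library left out, the log2 fold change of Vim ran from -0.035 to 0.11, that of Axin2 from -0.14 to 0.59 and that of Lef1 from -0.85 to 0.35. Of 120 counts by list and direction, 51 changed by more than 1.5 times under some alternative, 25 of them in the test beyond 1.5-fold, 18 with the 6 libraries alone, 13 without a filter and 5 to 19 with 1 library left out, most without CAF replicate 1. The cause was not tested. No paired analysis was possible because the replicate numbers were given in accession order and pair nothing. Depth limits genes under a few counts per library, for which only bounds or counting intervals are given.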
